A study of Mus musculus with 38 samples.

Results

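Loss of the lamin B receptor (LBR) in cells that already lacked the lamins was read by comparing quadruple knockout (QKO) with triple knockout (TKO) epiblast-like cells (EpiLCs). The members were 3 QKO EpiLC and 3 TKO EpiLC libraries of LAP2B CUT&RUN, chosen by the genotype, stage and antibody in their labels, out of 38 samples in the series. TKO cells lack Lmna, Lmnb1 and Lmnb2, the genes of all lamins, and both groups carry these deletions. QKO cells come from the TKO cells by CRISPR deletions in Lbr, and only 1 such clone survived. Per the study's supplement one of its Lbr deletions shifts the reading frame and the other keeps it. The study checked LBR depletion by western blot and reports no detectable LBR protein by immunostaining. With a single clone, loss of LBR and what is particular to it cannot be told apart. Per the study's methods the TKO stem cells are trisomic for chromosome 8, and part of them have lost the Y chromosome. Both lines were kept as naive mouse embryonic stem cells and then grown for 48 h in N2B27 with 20 ng/ml FGF and 12 ng/ml activin A, and 200000 live cells went into each library. For comparison the same assay was used in both lines at the naive stage, in wild-type (WT) EpiLCs from a littermate line, and in LBRKO EpiLCs, made from the WT line by targeting Lbr, so that both of these keep the lamins. Few QKO cells survive that step per the study, so the libraries hold the survivors. The labels do not say whether replicates came from separate cultures, and p-values measure the spread between these libraries, which may be technical.

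LBR and the lamins are the main tethers that hold heterochromatin at the inner face of the nuclear envelope. LBR spans the inner nuclear membrane, binds HP1 and histones through its nucleoplasmic part, and carries a sterol reductase domain in the membrane. LAP2B, a product of Tmpo, is another protein of the inner nuclear membrane. CUT&RUN with an antibody against LAP2B releases DNA that lies close to it, so the signal over a gene speaks of DNA near the antibody and not of how strongly the gene was transcribed. In most cell types the sequence at the lamina is AT-rich, poor in genes and CpG, rich in L1 elements, and holds long neuronal genes and tandem families of receptor genes, while gene-dense, CpG-rich and SINE-rich sequence lies inside the nucleus.

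Upstream sequence of the genes that rose and of those that fell differed in its content of CG dinucleotides. The 300 bases upstream of the annotated start (GRCm39, read on the strand of the gene) held a median of 10 CG in genes whose share of the LAP2B signal rose in QKO EpiLCs, 3 in genes whose share fell and 4 in all genes tested. At least 1 CG stood in 97.9% of the windows of genes that rose, 88.4% of those that fell and 90.9% of all windows. The 4 windows printed belong to the genes, out of the 10 largest rises and 10 largest falls, whose CpG density around the start lay nearest to the median of their direction, and each CG is in capitals. CG reads the same on both strands, and a count of it is a description of these windows only.
Mfsd3, which rose, chr15:76585356-76585655, plus strand: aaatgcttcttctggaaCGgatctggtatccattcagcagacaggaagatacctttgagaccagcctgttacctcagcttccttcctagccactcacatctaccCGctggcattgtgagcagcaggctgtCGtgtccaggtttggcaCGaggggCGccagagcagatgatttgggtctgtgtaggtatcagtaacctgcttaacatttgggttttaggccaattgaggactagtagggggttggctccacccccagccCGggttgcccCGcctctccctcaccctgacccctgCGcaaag
Cyb5r1, which rose, chr1:134332997-134333296, plus strand: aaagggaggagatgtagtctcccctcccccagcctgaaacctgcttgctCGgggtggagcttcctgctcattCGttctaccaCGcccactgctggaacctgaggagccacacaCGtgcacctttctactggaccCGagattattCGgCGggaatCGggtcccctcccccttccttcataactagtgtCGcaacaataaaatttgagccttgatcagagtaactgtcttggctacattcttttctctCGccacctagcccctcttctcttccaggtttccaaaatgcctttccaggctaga
Or10ac1, which fell, chr6:42524522-42524821, minus strand: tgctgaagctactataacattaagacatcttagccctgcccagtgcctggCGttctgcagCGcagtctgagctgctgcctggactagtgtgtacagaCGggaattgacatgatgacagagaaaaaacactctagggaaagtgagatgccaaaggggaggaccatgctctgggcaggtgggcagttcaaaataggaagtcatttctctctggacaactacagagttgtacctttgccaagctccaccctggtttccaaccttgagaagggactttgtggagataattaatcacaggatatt
Kcnv1, which fell, chr15:44979295-44979594, minus strand: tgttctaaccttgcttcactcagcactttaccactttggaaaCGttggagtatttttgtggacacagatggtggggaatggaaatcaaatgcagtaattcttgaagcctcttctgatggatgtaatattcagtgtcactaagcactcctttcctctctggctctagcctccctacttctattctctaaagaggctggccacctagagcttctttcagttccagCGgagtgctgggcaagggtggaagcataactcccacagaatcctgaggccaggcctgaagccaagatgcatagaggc
The Mfsd3 window holds 8 CG and the Cyb5r1 window 10, a number reached by 27.7% and 21.7% of all windows of this length. The Or10ac1 window holds 3 and the Kcnv1 window 2, which 64.4% and 77.7% of all windows reach.

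The deposited value of a gene is a sum of spike-in scaled RPKM over the 1 kb bins it touches, and it grows with gene length. It was read on 2 scales. On the spike-in scale the values were taken as deposited. Per the study's methods each sample received the same amount of yeast DNA, and the factor is a constant divided by the yeast read pairs. It multiplies RPKM, which is already divided by depth, so the number of yeast pairs read sets the level of the library. On the relative scale each value was divided by that of the median gene of its library, so that a change is a change in the share of the LAP2B signal. Reads recovered from the values and summed over genes numbered 20179766 to 33084955 in the TKO libraries and 28218939 to 36816402 in the QKO libraries, with 63 to 114 reads over the median gene. Of 78202 genes, 70381 had enough signal to be tested. Since the assay reads DNA, neither the knockouts nor the cell type could be checked from it.

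LAP2B signal per gene was lower in QKO EpiLCs when scaled to the spike-in. The mean over genes was 6.52, 5.92 and 6.03 in QKO replicates 1, 2 and 3 (6.16 ± 0.322, SD, n = 3) and 13.1, 8.98 and 7.42 in the TKO replicates (9.83 ± 2.94, SD, n = 3). Every QKO library lay below every TKO library, and TKO replicate 1 stood well above the others. The QKO level was 0.644 of the TKO level in geometric means, a log2 difference of -0.64 with an SE of 0.25 (exact permutation test, two-sided, p = 0.1, the smallest that 3 against 3 libraries allow). Without TKO replicate 1 this difference was -0.41. The background antibody IGG, run in WT EpiLCs, read 3.62, 8.03 and 3.08, a range that holds every QKO value and reaches into that of TKO.

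Depth moved with this level. Among the TKO libraries the level was highest in the one with the fewest reads, 20179766, and lowest in the one with the most, 33084955. When whole reads, not RPKM, were multiplied by the spike-in factor, the libraries read 6.77, 8.01 and 7.17 in QKO and 9.73, 9.77 and 9.02 in TKO EpiLCs. On that scale the QKO libraries were again all lower, by -0.38 in log2 with an SE of 0.08 (exact permutation test, p = 0.1). IGG in WT EpiLCs read 2.8, 4.15 and 4.11 there, below every QKO library, so its overlap with QKO held only for values as deposited. The part of depth in the level was not tested further, and fewer cells with LAP2B at the DNA cannot be told apart from less LAP2B per cell.

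**Figure D1:**
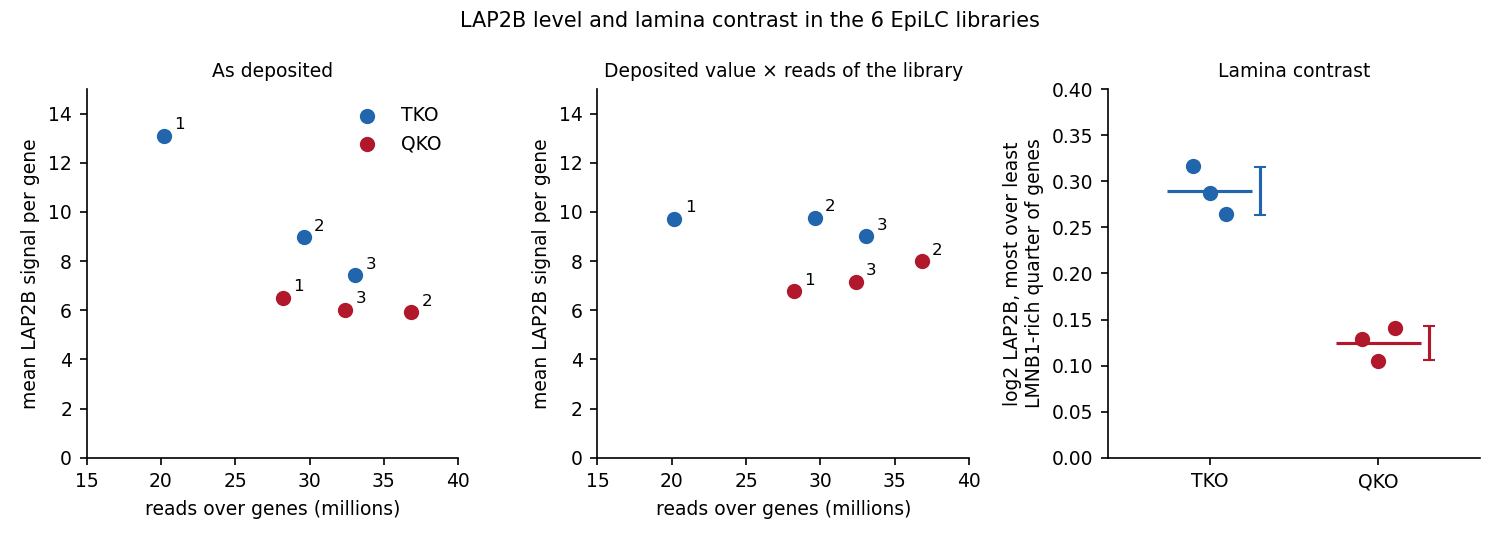
LAP2B level and lamina contrast by library. Left and middle, mean LAP2B signal per gene as deposited, and the same with whole reads multiplied by the factor, against the recovered reads over genes, 1 point a library. Right, lamina contrast (log2 of the mean signal per 1 kb bin in the class of genes with the most LMNB1 over the class with the least), points for libraries, with the mean and SD. The 3 QKO EpiLC libraries lie below the 3 TKO EpiLC libraries in each panel.

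On the spike-in scale 19929 of 70381 genes fell, 28.3%, and 1 rose (limma, adjusted p under 0.05), with a median log2 change of -0.57. Over single genes, 96.2% of the changes were below 0. The count called either way, 19930, became 651 when the reads themselves were multiplied by the factor. It was 1 without QKO replicate 2, and 0 without TKO replicate 1 (limma, with 13319 genes at an unadjusted p under 0.05 in that fit). The median change was -0.34 with the factor applied to reads and -0.36 without TKO replicate 1.

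QKO EpiLCs held less LAP2B than TKO EpiLCs over the genes that the lamina holds in WT EpiLCs, relative to the other genes. Genes were put into 4 classes of equal size by the LMNB1 signal per bin of WT EpiLCs, and the lamina contrast is the log2 ratio of mean LAP2B signal per bin in the top over the bottom class. It is no map of lamina-associated domains, since per the study LAP2B signal in WT EpiLCs lies both inside and outside of them. The contrast read 0.13, 0.10 and 0.14 in the QKO libraries (0.12 ± 0.02, SD, n = 3) and 0.32, 0.29 and 0.26 in the TKO libraries (0.29 ± 0.03). The groups did not overlap, and the difference was -0.16 with an SE of 0.02 (exact permutation test, two-sided, p = 0.1). The same contrast was 0.28, 0.19 and 0.24 with IGG in WT EpiLCs, so the TKO libraries lay near the background antibody and the QKO libraries below it. This place against IGG read otherwise with classes by LMNB1 over IGG. There QKO read -1.09, -1.10 and -0.95, overlapping IGG at -1.08, -0.92 and -0.72. TKO read -0.71, -0.68 and -0.58 there, above IGG. Those classes were formed by dividing by the same IGG libraries, which lowers the IGG contrast by construction. They therefore cannot place either group against IGG. The sign of the contrast itself depended on how it was taken, and the QKO libraries read -0.21, -0.23 and -0.19 with values not divided by bins, where TKO read -0.04, -0.05 and 0.0019. The QKO libraries lay below the TKO libraries in each of the ways tried. For scale, it was 1.53 ± 0.17 for LMNB1 itself and 0.89 ± 0.18 for LAP2B in WT EpiLCs. Top-class genes took 21.3%, 21.1% and 21.5% of the LAP2B signal in QKO and 22.8%, 22.7% and 23.2% in TKO EpiLCs. Across genes, the Spearman correlation of LAP2B with LMNB1 was -0.02, -0.03 and -0.01 in QKO and 0.10, 0.09 and 0.10 in TKO, while that with IGG was 0.77 to 0.79 in QKO and 0.73 to 0.76 in TKO. These correlations use values per 1 kb bin, which divides out gene length. They are across genes, which are not independent, and all share base composition.

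The share of the LAP2B signal rose in 657 genes and fell in 190, of 70381 tested (limma on the relative scale, adjusted p under 0.05). The background is thus 1.2% of genes called either way, 0.933% higher and 0.27% lower. Genes whose 3 QKO libraries did not overlap the 3 TKO libraries numbered 17639, or 25.1%, with all QKO libraries above in 12.3% and below in 12.8%. Changes were small, with a median of -0.02, an SD of 0.29, and 5th and 95th percentiles of -0.47 and 0.48 over all genes tested. The SE of a single gene had a median of 0.24. The count depended on which libraries share the estimate of spread. With the 6 EpiLC libraries fitted alone, whose median within-group SD was 0.165 in QKO and 0.183 in TKO against up to 0.251 in the other LAP2B groups, 3386 genes (4.81%) were higher and 2408 (3.42%) lower. Leaving out 1 of the 6 libraries gave 66 to 726 genes, with 64 higher and 2 lower without QKO replicate 1.

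Genes that rose and genes that fell differed in kind. Those that rose had medians of 17 bins of 1 kb, 49.5% GC and 44 CpG per kb around the start, and 70.2% were protein coding. Those that fell had medians of 58.5 bins, 39.9% GC and 9.99 CpG per kb, and 33.7% were protein coding. All genes tested had medians of 6 bins, 45.4% GC and 14 CpG per kb, and 29.7% were protein coding. Calls were more frequent among longer genes, while the change itself hardly followed length (Spearman correlation across genes -0.03). In classes of 17578 genes, from shortest to longest, 24, 72, 282 and 277 rose and 12, 19, 26 and 133 fell. The median changes of these classes were -0.03, -0.0022, 0.01 and -0.05. How far gene length shaped the called sets, their protein-coding share included, was not tested. In WT EpiLCs the genes that rose carried an LMNB1 signal per bin of 0.178, on the relative scale, against 0.295 for those that fell and 0.205 for all. Their IGG signal per bin was 0.279, against 0.153 for those that fell and 0.204 for all.

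These shares are relative. On the spike-in scale 655 of the genes that rose, those with coordinates, had a median change of 0.04 and 1 of them rose, while the 190 had a median of -1.12 and all 190 fell. A rise in share was thus, for nearly all of these genes, a level that did not pass the test against TKO on the spike-in scale, and a fall in share was a fall on both scales. The scales hold the same libraries and differ mainly by a factor per library, so the spike-in scale is no separate support. Without TKO replicate 1 no gene was called on it.

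The largest rises were taken among genes of at least 5 bins with a proper symbol, at most 1 per 1 Mb, so larger changes of shorter, unnamed or neighbouring genes, up to 1.43 for rises and 1.39 in size for falls, are not among them. The values that follow are LAP2B signal over the whole gene divided by that of the median gene of the library, for QKO and then TKO replicates 1, 2 and 3, and they are not comparable between genes of different length. Get3 (chr8:85744557-85752366), the ATPase that hands tail-anchored proteins to the endoplasmic reticulum, read 6.34, 5.92 and 5.95 in QKO and 2.46, 3.03 and 2.84 in TKO EpiLCs. It rose by 1.11 in log2 with an SE of 0.16 (limma, adjusted p = 0.000116). Daxx (chr17:34128384-34134564), a chaperone that places histone H3.3 into heterochromatin, read 5.48, 4.95 and 4.21 in QKO and 2.03, 2.64 and 1.96 in TKO, a rise of 1.11 (SE 0.19, adjusted p = 0.000812). In both genes the lowest QKO library lay far above the highest TKO library.

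Prss8 (chr7:127524888-127529294), a membrane-bound serine protease of epithelia, read 5.87, 5.88 and 4.03 in QKO and 2.56, 2.04 and 2.52 in TKO, a rise of 1.10 (SE 0.17, adjusted p = 0.000262). Bcl2l12 (chr7:44639472-44648136), of the BCL2 family, read 5.9, 5.97 and 4.57 against 2.56, 2.48 and 2.5, a rise of 1.09. Nfe2 (chr15:103156526-103166830), a transcription factor of the erythroid and megakaryocyte lineages, read 9.3, 6.55 and 6.62 against 3, 4.39 and 3.59, a rise of 1.01. These genes and Get3 and Daxx stayed past the threshold under every alternative that was run for them. Within the QKO group the highest library of Nfe2 and the lowest of Prss8 and Bcl2l12 stood somewhat apart from the others.

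Renbp (chrX:72965724-72974456), which encodes a renin-binding epimerase, read 3.5, 3.43 and 2.97 in QKO and 1.17, 1.68 and 1.51 in TKO, a rise of 1.14. Cyb5r1 (chr1:134333297-134339478), a cytochrome b5 reductase, read 4.62, 3.96 and 3.93 against 1.87, 2.08 and 2.26, a rise of 0.98. Both lost the call without QKO replicate 1, with adjusted p = 0.0592 and 0.0633 (limma). Sertad3 (chr7:27171728-27176793), a transcriptional coregulator, read 3.02, 2.58 and 2.47 against 0.683, 1.17 and 1.98, so that its TKO libraries were spread over a wide range. Mfsd3 (chr15:76585656-76591833), of the major facilitator transporters, read 2.53, 2.58 and 2.17 against 1.02, 1.51 and 1. Sertad3 and Mfsd3 rose by 1.13 and 1.01 and lost the call when any 1 of several libraries was left out, with adjusted p up to 0.22 for Sertad3. Erdr1y (chrY:90796007-90833677), a long non-coding gene with a near-identical copy on the X chromosome whose reads could be split between the copies, read 80.8, 75 and 69.9 against 37.8, 35.5 and 35.5. It rose by 1.05 (limma, adjusted p = 1.93e-06), and it read 6.7, 6.6 and 8.69 in LBRKO and 8.75, 6.81 and 10.2 in WT EpiLCs. On the spike-in scale none of the 10 genes passed the test, with changes of 0.38 to 0.56 and adjusted p from 0.119 to 0.263 (limma).

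**Figure D2:**
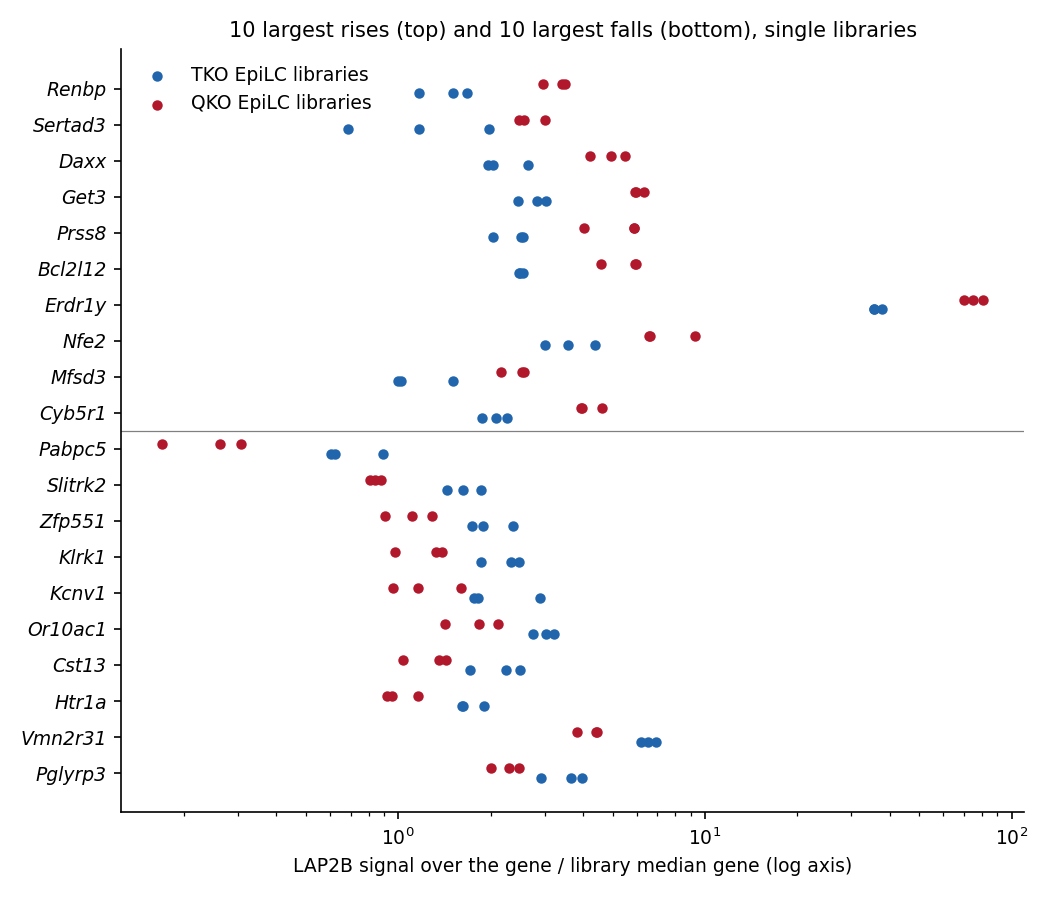
LAP2B signal over the gene divided by that of the library's median gene (log axis), for the 10 genes with the largest rises (top) and the 10 with the largest falls (bottom) under the rule for named genes. Each point is a QKO or TKO EpiLC library, and in each of the 20 genes the 3 QKO points lie on one side of the 3 TKO points because the rule required it.

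The largest falls were taken by the same rule. Pabpc5 (chrX:118836893-118844380), an X-linked poly(A)-binding protein, read 0.17, 0.307 and 0.263 in QKO and 0.889, 0.622 and 0.602 in TKO, on 15 to 35 reads in QKO and 56 to 59 in TKO. It fell by 1.22 on the log2 scale (SE 0.32, limma, adjusted p = 0.0426). Slitrk2 (chrX:65692710-65704999), a neuronal adhesion protein, read 0.841, 0.807 and 0.879 against 1.86, 1.63 and 1.44, a change of -0.88. The QKO libraries of Slitrk2 lay close together, well under the lowest TKO library.

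Htr1a (chr13:105580147-105584630), a serotonin receptor, read 0.92, 0.956 and 1.16 against 1.9, 1.62 and 1.61, a change of -0.71. Kcnv1 (chr15:44820049-44979294), a modifier subunit of potassium channels, read 1.6, 1.16 and 0.96 against 2.89, 1.82 and 1.77, a change of -0.75 with an adjusted p that rounds to 0.05 (limma). Klrk1 (chr6:129587286-129600827), the NKG2D receptor of natural killer cells, read 0.977, 1.33 and 1.39 against 1.86, 2.47 and 2.34, a change of -0.80. The highest QKO library of Kcnv1 lay close under the lowest TKO library, and the groups of Htr1a and Klrk1 stood farther apart.

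Zfp551 (chr7:12145555-12156685), a zinc finger gene, read 1.11, 0.904 and 1.29 against 2.37, 1.74 and 1.89, a change of -0.80. Pglyrp3 (chr3:91921890-91938889), a peptidoglycan recognition protein of epithelia, read 2.48, 2.29 and 2.01 against 3.98, 2.92 and 3.67, a change of -0.61. Cst13 (chr2:148648772-148672332), a cystatin, read 1.36, 1.04 and 1.43 against 2.49, 2.24 and 1.72, a change of -0.71. The receptor genes Or10ac1 (chr6:42512598-42524521) and Vmn2r31 (chr7:7381250-7402702) belong to families with near-identical copies, so their reads are less certain. Or10ac1 read 1.42, 2.11 and 1.84 against 2.76, 3.22 and 3.04, a change of -0.73, and Vmn2r31 read 4.44, 3.82 and 4.4 against 6.54, 6.2 and 6.95, a change of -0.63. All 10 genes also fell on the spike-in scale, by 1.20 to 1.67, where the level of the QKO libraries as a whole was lower. Each of them lost the call on the relative scale in at least 3 of the alternatives run for it, leaving out single libraries among them.

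None of the 4 knocked-out genes was called on the relative scale with all LAP2B libraries in the fit. Lbr read 7.35, 7.96 and 6.07 in QKO and 6.02, 7.07 and 6.52 in TKO EpiLCs, groups that overlap, with a change of 0.12 (limma, adjusted p = 0.785). Lmna read 15, 14.1 and 11.5 against 8.67, 9.78 and 9.52, a change of 0.53, and Lmnb2 read 8.3, 7.75 and 6.14 against 5.67, 5.89 and 4.74, a change of 0.43. Lmnb1 read 10.6, 9.68 and 9.31 against 10.6, 11.8 and 11.2, a change of -0.18. The QKO libraries were all above TKO for Lmna and Lmnb2, with adjusted p = 0.325 and 0.231 (limma). With the 6 EpiLC libraries fitted alone both were called, at adjusted p = 0.000144 and 0.0098 (limma). These values speak of DNA near the antibody and of no transcript.

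The counts of called genes in the lists below stand against 0.933% of all tested genes called higher and 0.27% lower. Of 20850 protein-coding genes tested with coordinates, 460 were called higher and 64 lower. The list genes named from here on rest on few libraries. Leaving out single libraries took the call from each of them that is not among the 10 largest rises, from Cbx5 only without QKO replicate 1 (limma, adjusted p = 0.0633), and from Etv5, Mrps36, Zfp37 and Cyp2j9 without any 1 of the 6 (adjusted p up to 0.264, 0.223, 0.264 and 0.293).

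Of 24 genes of the nuclear envelope, 1 rose and none fell, 18 were above 0 and the median change was 0.20, against 46.7% above 0 and a median of -0.02 over all genes. Emd, which encodes the LEM-domain protein emerin, read 2.78, 2.16 and 2.29 in QKO and 1.71, 1.02 and 1 in TKO, a rise of 0.93 (limma, adjusted p = 0.0223). All QKO libraries were above TKO in 9 of the 24 genes and below in 1, against 12.3% and 12.8% of all genes. Emd lies inside the window of the X chromosome described further on, in which many genes rose.

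Among genes that silence transposons and build heterochromatin 3 of 21 rose and none fell, with 19 above 0 and a median of 0.17. Cbx5, which encodes HP1 alpha, a reader of H3K9 methylation and a partner of LBR, read 20.3, 18.7 and 17.6 against 12.4, 12.7 and 12.9. The 3 QKO libraries of Cbx5 lay well above the 3 close TKO libraries, and it rose by 0.57 (SE 0.11, limma, adjusted p = 0.0022). Daxx, described above, is the largest rise of this list. Of 21 genes of innate sensing of nucleic acids 2 rose and none fell, with a median of 0.06. These were Irf3, at 4.03, 4.44 and 3.42 against 1.73, 2.44 and 2.32, and Stat2, at 9.72, 9.68 and 9.02 against 7.21, 6.31 and 5.9, both factors of the interferon response. Irf3 rose by 0.85 and Stat2 by 0.55. Irf3 (chr7:44647033-44652272) starts inside Bcl2l12, which starts on the opposite strand, so that these genes share part of their reads.

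Sterol synthesis, in which LBR has an enzymatic role of its own, had 2 of 21 genes called higher, none lower, 19 above 0 and a median of 0.23. Fdps, which makes farnesyl diphosphate, read 5.3, 5.89 and 5.07 in QKO and 4.1, 2.9 and 2.44 in TKO, a rise of 0.80. The QKO libraries of Fdps were closer together than those of TKO, and the groups did not overlap. As the assay reads DNA, these values carry no information on sterol output.

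Of the pluripotency genes 1 was called. Of 9 core pluripotency genes 8 were above 0 with a median of 0.30, all QKO libraries were above TKO in 6, against 12.3% of all genes, and none was called. Of 19 naive pluripotency genes 10 were above 0 with a median of 0.02 and none was called. Of 19 primed epiblast genes 1 rose, 11 were above 0 and the median was 0.10. That gene, Etv5, an ETS factor downstream of FGF, read 20.4, 21.7 and 19.8 against 15.3, 15.4 and 16.3, a rise of 0.39 (limma, adjusted p = 0.0484). With the 6 EpiLC libraries fitted alone 3 of 9 core and 5 of 19 primed genes were higher and none lower, against 4.81% and 3.42% of all genes. Otx2, a defining factor of EpiLCs, read 4.62, 4.96 and 4.91 against 4.43, 4.94 and 4.5, groups that overlap. Among 12 marker genes of the naive, primed and primitive endoderm states none was called, and their changes lay between -0.26 for Pdgfra and 0.24 for Pou3f1.

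Several lists of lineage and signalling genes held no gene called on the relative scale with all LAP2B libraries in the fit. These were primitive endoderm (20 genes, median -0.11), mesoderm and gastrulation (22, -0.04), trophoblast (14, -0.05), germline (20, -0.05), Wnt ligands (19, -0.04), ligands of the TGF-beta family (19, 0.03), imprinted genes (24, -0.09), Hox clusters (39, -0.01) and Fox factors (45, -0.02). With the 6 EpiLC libraries fitted alone 0 to 5 genes of each were higher and 0 to 3 lower, the most in Fox factors (5 of 45 higher, 2 lower). Primitive endoderm genes had 3 of 20 above 0. Scaled to the spike-in, 14 of 20 primitive endoderm genes, 6 of 22 mesoderm, 6 of 14 trophoblast and 11 of 20 germline genes fell. The same scale gave falls in 11 of 19 Wnt ligands, 8 of 19 TGF-beta ligands, 14 of 24 imprinted genes, 6 of 39 Hox genes and 15 of 45 Fox factors. Among all tested genes of at least 10 bins, fitted on their own, 17895 of 28589 fell. Of 18 neural genes 1 rose and the median was -0.14. That gene was Nes, which encodes the intermediate filament nestin, at 5.62, 5.56 and 5.03 in QKO and 2.32, 3.53 and 3.47 in TKO, a rise of 0.80 (SE 0.16, limma, adjusted p = 0.00547). In the neural list 14 genes had changes of 0 or below, so Nes was an exception in its list. Apoptosis genes (20, median 0.07) held no called gene with all LAP2B libraries in the fit, and 3 higher and 1 lower with the 6 libraries alone.

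Genes of general cell upkeep had medians above that of all genes. Housekeeping genes had 16 of 17 above 0 with a median of 0.21 and 1 called higher. The nuclear envelope, transposon-silencing and sterol lists above had similar medians, 0.20, 0.17 and 0.23. Subunits of RNA polymerase II (13 genes, median 0.24), ribosomal proteins (77, 0.14) and proteasome subunits (38, 0.11) held no called gene with all LAP2B libraries in the fit. With the 6 EpiLC libraries alone 2, 8 and 3 of them were higher and none lower, against 4.81% and 3.42% of all genes. Mitochondrial ribosomal proteins (75, 0.15) held 1, Mrps36, at 3.72, 3.61 and 3.34 against 2.17, 2.37 and 2.62, a rise of 0.56. The 24 tested replication-dependent histone genes, of 68 in the table, were all above 0 with a median of 0.48, and H1f2 was called, a linker histone gene at 3.09, 2.26 and 1.93 against 1.48, 1.21 and 0.959. Histone genes are short and stand in clusters, so that neighbours share bins. H1f2 itself touches 3 bins.

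Very long neuronal genes, a class known from lamina maps, had a median of -0.20, with 5 of 29 above 0. All QKO libraries lay below TKO in 20 of the 29, where 12.8% of all genes did so, but none was called in the main fit. In the fit of the 6 EpiLC libraries alone 18 of 29 were lower, against 3.42% of all genes, and 1 was higher. On the spike-in scale 25 of the 29 fell, against 28.3% of all genes and 17895 of 28589 genes of at least 10 bins.

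Several families of receptor and other tissue genes that lie in tandem had medians below 0 and few calls with all LAP2B libraries in the fit. Of 1150 tested olfactory receptor genes 2 fell and none rose, 357 were above 0 and the median was -0.14. They were Or10ac1 and Or10z1, which read 0.227, 0.667 and 0.515 against 1.3, 0.922 and 0.898 on 20 to 88 reads. Vomeronasal receptors of type 1 (149 tested, median -0.23, none called) and of type 2 (111, -0.20, 1 called, Vmn2r31) were alike. Taste receptors of type 2 (34, -0.23), defensins (68, -0.13), keratin-associated proteins (95, -0.22), serpins of clades A and B (52, -0.18) and the Pramel family (60, -0.19) held no called gene. With the 6 EpiLC libraries fitted alone 10 of 111 vomeronasal type 2 genes, 7 of 52 serpins and 4 of 60 Pramel genes were lower. These shares lay above the 3.42% of all genes. The share was below it in vomeronasal type 1 (5 of 149, 3.36%), taste receptor (1 of 34, 2.94%) and olfactory genes (24 of 1150, 2.09%). It was also below in keratin-associated proteins (1 of 95, 1.05%) and defensins (0 of 68).

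The lectin-like Klr receptors of natural killer cells had the lowest median of any list, -0.42, with 3 of 27 fallen and 2 above 0. Among those that fell, Klra1 read 2.05, 3.25 and 2.36 in QKO and 4.21, 4.03 and 3.9 in TKO, a change of -0.67 (limma, adjusted p = 0.0351), and Klrk1 is described above. Members of the Klra cluster are near-identical copies that lie side by side, so they are not separate observations. In the Cyp2, Cyp3 and Cyp4 cytochromes 2 of 72 fell with a median of -0.12, namely Cyp2j8, at 6.6, 7.75 and 8.15 against 11, 10.6 and 11.7, and its neighbour Cyp2j9. Cyp2j8 and Cyp2j9 are epoxygenases of arachidonic acid and changed by -0.56 and -0.55.

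Zinc finger genes with Zfp symbols went both ways, with 13 of 389 risen, 2 fallen and a median of 0.08. Zfp553 read 3.64, 3.76 and 2.78 against 2.22, 1.29 and 1.68, a rise of 0.95, and Zfp37 read 6.61, 7.51 and 7.03 against 9.4, 9.3 and 10.3, a change of -0.45. Zfp689 rose by 0.83, and Zfp551 is among the largest falls. Clustered protocadherins, adhesion proteins that give neurons their identity, had 7 of 58 called higher, none lower and a median of 0.17. Members went both ways, with all QKO libraries above TKO in 22 and below in 13, against 12.3% and 12.8% of all genes. Pcdhgc5 read 11.7, 11.2 and 9.11 against 7.89, 6.56 and 6.04, a rise of 0.64, and Pcdhgc4 rose by 0.59. The gamma genes share their last exons, so these calls rest in part on the same reads. Solute carriers had 8 of 336 risen and 2 fallen with a median of 0.04. The zinc carrier Slc39a5 and the mitochondrial carrier Slc25a44 rose by 0.69 and 0.63, and the monocarboxylate carrier Slc16a7 and the zinc carrier Slc39a12, genes of 171 and 157 bins, changed by -0.43 and -0.42.

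Across the genome the change followed the features by which lamina and interior sequence differ. From the class of genes with the least to that with the most LMNB1 in WT EpiLCs, the median change was 0.04, 0.03, -0.05 and -0.13, and the number that fell was 10, 21, 49 and 110 of 17578 in each. By GC content it was -0.12, -0.06, 0.01 and 0.10, and the number that rose was 64, 86, 176 and 329. By CpG density around the start it was -0.12, -0.05, -0.01 and 0.08. By IGG signal per bin in WT EpiLCs it was -0.13, -0.08, 0.01 and 0.13, with 39, 66, 131 and 419 genes risen. The steepest of these gradients was thus that of the background antibody, with Spearman correlations across genes of 0.33 for IGG, 0.27 for GC, 0.25 for CpG and -0.24 for LMNB1. These features move together across genes, and the part of the non-specific signal in the changes was not tested.

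**Figure D3:**
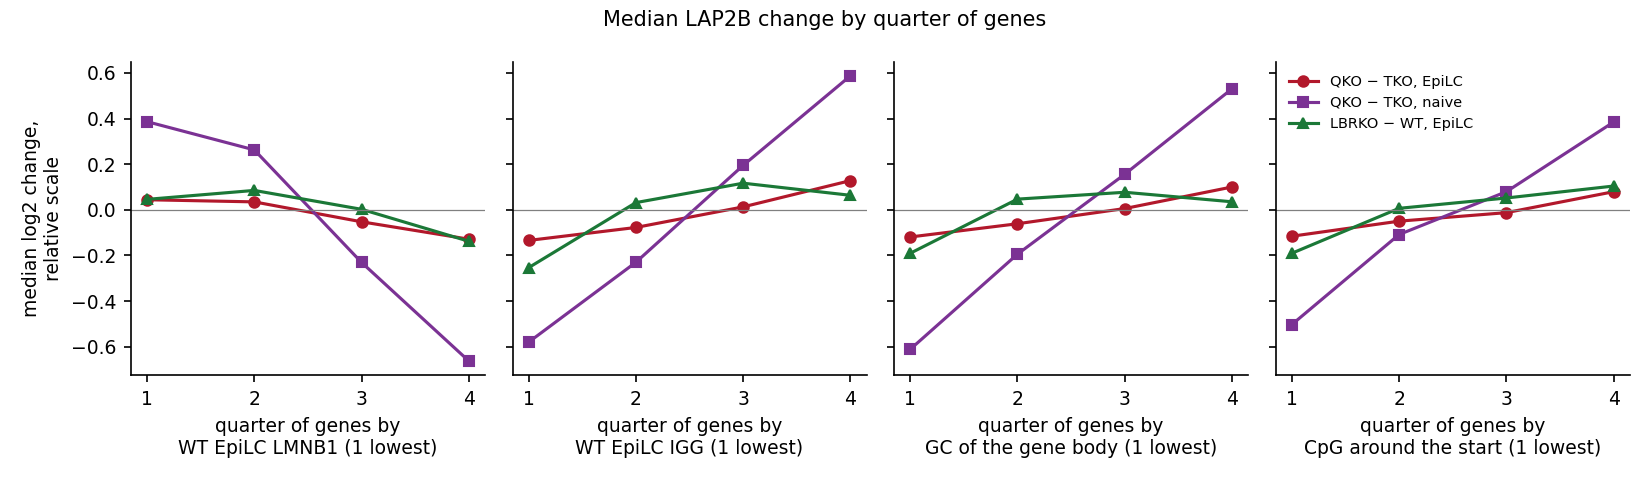
Median relative log2 change of LAP2B (vertical) in 4 classes of genes of equal size, from lowest to highest, by LMNB1 per bin, IGG per bin, GC content and CpG density around the start. Lines stand for QKO minus TKO in EpiLCs, QKO minus TKO in naive cells and LBRKO minus WT in EpiLCs. In EpiLCs the QKO minus TKO medians run from 0.04 down to -0.13 by LMNB1 and from -0.13 up to 0.13 by IGG, and the naive medians run the same way over a wider range.

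Median changes of chromosomes lay close together, while the share of genes called differed. Chromosome 11 had the highest median change, 0.10, with 76 of 4301 genes risen (1.77%) and 5 fallen, and chromosome 6 the lowest, -0.13, with 20 of 4077 risen (0.491%) and 33 fallen (0.809%). On chromosome 14 there was 1 rise in 2917 genes (0.0343%) and 12 falls (0.411%). Chromosome 7 held 112 rises in 5205 genes (2.15%) and 9 falls, and chromosome 8, trisomic in the TKO line, had a median of 0.00 with 62 rises in 3513 genes (1.76%) and 3 falls. The Y chromosome, lost in part of the TKO cells, had a median of 0.03.

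In windows of 2 Mb with at least 10 tested genes, 382 of 1312 had a median above 0. By the number of genes in the window, from 10 to 28 up to 70 to 266, the typical window median was -0.17, -0.13, -0.07 and 0.05. The window chr7:126000001-128000000, with 206 tested genes of which 104 are protein coding, had a median of 0.52 and held 46 genes that rose and none that fell. Its mean ratio to TKO was 1.49, 1.48 and 1.29 in the QKO libraries, and it holds Prss8 and Zfp553. The windows chr11:120000001-122000000 (122 genes, median 0.46, 22 risen) and chrX:72000001-74000000 (105 genes, median 0.46, 15 risen), which holds Renbp and Emd, were alike, with ratios of 1.42, 1.42 and 1.26, and of 1.49, 1.48 and 1.33. In all of these windows QKO replicate 3 was the lowest of its group. The window chrY:90000001-92000000, around Erdr1y, had the highest median, 0.81, over 13 genes.

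Among the windows with the lowest medians were some with few genes. The window chr16:60000001-62000000 had a median of -0.48 over 18 genes, none of them protein coding, with ratios to the TKO mean of 0.729, 0.713 and 0.77 in QKO and 0.952, 0.981 and 1.07 in TKO. The window chr6:74000001-76000000 (13 genes) had a median of -0.45, and chrX:24000001-26000000 (22 genes) of -0.41. The window chr6:130000001-132000000, over the Klra cluster, had a median of -0.42 over 67 genes and ratios of 0.695, 0.754 and 0.793. In these windows 1, 1, 0 and 1 genes fell, so the shift was spread over many genes that were each below the threshold.

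No family of transposable elements (TEs) was called on the relative scale, 0 of 1225 or 0% (limma), with 172 at an unadjusted p under 0.05 and a lowest adjusted p of 0.15. The 6 libraries fitted alone gave 41 families higher (3.35%) and 52 lower (4.24%). The change was also narrower than for genes, with an SD of 0.0691 over families, each the mean of all its copies. The methods name wider bins for copies than for genes, so the value of a copy may include flanking sequence. On the spike-in scale 1217 families fell, 99.3%, by a median of 0.61 on the log2 scale, but without TKO replicate 1 none did (limma, 618 at an unadjusted p under 0.05).

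Of the large classes the DNA transposons (293 families) had a median of -0.0015, LTR elements (630) of -0.0044 and LINEs (198) of -0.01. Each library was divided by its median family, so medians near 0 in large classes follow from the scale. Above or below 0 here means relative to the median family. With libraries divided by their mean, the median change over all families was 0.135 in place of -0.0033. SINEs, short elements of gene-dense sequence, had 33 of 34 families above 0 with a median of 0.10, and 24 were called higher in the 6-library fit. B2_Mm1a, with 18416 copies, read 1.31, 1.33 and 1.29 in QKO and 1.18, 1.16 and 1.17 in TKO, as the mean copy over that of the median family, a change of 0.15 (SE 0.04, limma, adjusted p = 0.15). All QKO libraries of B2_Mm1a lay above those of TKO, with a gap wider than the spread within either group. The median was 0.12 for the 15 B1-related Alu families and 0.12 for the 5 B2 families.

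Within the L1 family 50 of 149 members were above 0 with a median of -0.02. The L1Md elements among them, the young L1 lineages of the mouse picked by name, had none of 25 families above 0, with a median of -0.08, and 19 were called lower in the 6-library fit. L1MdTf_I, among the L1Md families with the most LMNB1, read 3.46, 3.28 and 3.31 against 4.15, 3.82 and 3.72, a change of -0.21 (SE 0.06, limma, adjusted p = 0.15). In WT EpiLCs its LMNB1 signal was 4.13 times that of the median family, and its IGG signal was nearly as high, at 3.96 times. L1MdTf_II read 2.82, 2.67 and 2.71 against 3.31, 3.08 and 3, and changed by -0.19. In both the highest QKO library lay below the lowest TKO library. The older Lx elements had a median of -0.07 over 21 families, none above 0. The 25 families of intracisternal A particles (IAP), endogenous retroviruses silenced through H3K9 methylation, had a median of -0.04 with 4 above 0, and the 8 MERVL and MT2 families, active at the 2-cell stage, had a median of -0.0006.

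FordPrefect, a DNA transposon of 270 copies with much IGG signal, had the largest change of families with at least 100 copies, 0.57, at 5.36, 4.91 and 4.92 against 3.73, 3.42 and 3.05. Tigger17d, with 273 copies and an IGG signal 48 times that of the median family, had the lowest, -0.46, at 50.5, 30.8 and 42.2 against 70.7, 51.7 and 46.5, groups that overlap. Since no family was called, these families were picked for showing after their values were seen.

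**Figure D4:**
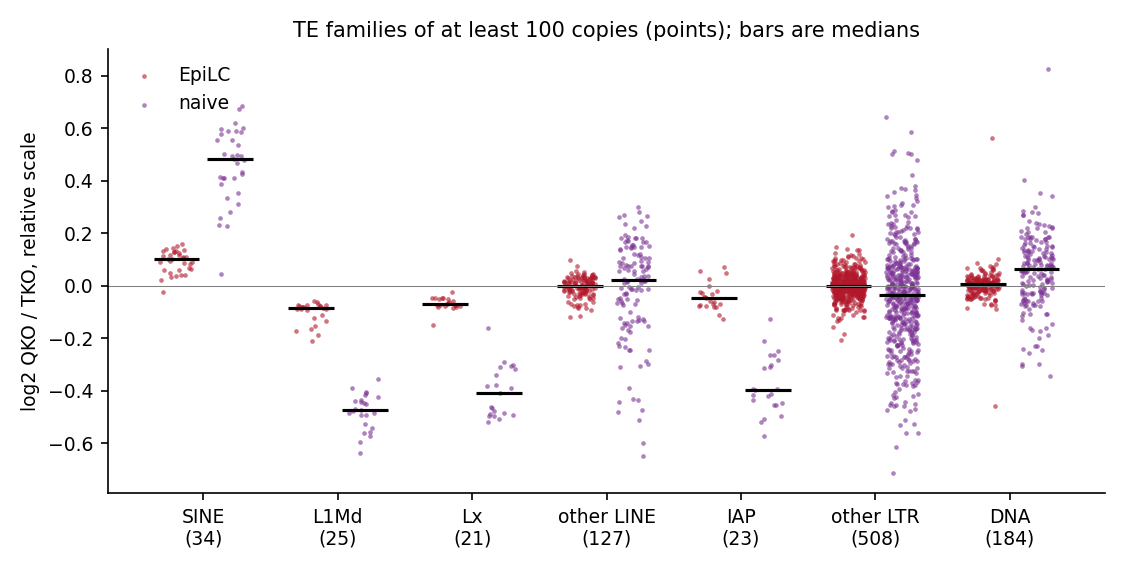
Relative log2 change of LAP2B, QKO minus TKO, in families of transposable elements with at least 100 copies, by class, in EpiLCs and in naive cells. Each point is a family and bars are medians. In EpiLCs nearly all SINE families lie above 0 (median 0.10) and the L1Md families below it (median -0.08), and in naive cells the same classes lie farther from 0.

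The same loss of LBR on the lamin-null background was read in naive cells, where nearly all genes called in EpiLCs were called too. There 53.6% of genes were called on the relative scale, 26.5% higher and 27% lower. Across genes the changes in the 2 stages, which share no library, had a Spearman correlation of 0.55, and the EpiLC change rose by 0.21 per unit of naive change. Of the 847 genes called in EpiLCs 816 were called in the same direction in naive cells, 96.3% of the EpiLC calls and 2.16% of the naive calls, and 3 in the opposite one. Genes called higher in naive cells had a median change of 0.94 there and 0.19 in EpiLCs, and those called lower -0.84 and -0.18. The difference between the stages was called in 18746 genes, 26.6%, and in 98.9% of them the naive change was the larger in size. It was higher in 8552 and lower in 10194 genes, or 10573 and 8286 with libraries divided by their mean. Of the named rises, Get3 changed by 1.86 in naive cells, Daxx by 1.69 and Renbp by 1.96. Of the named falls, Pabpc5 changed by -1.38, Slitrk2 by -1.56 and Kcnv1 by -1.71.

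**Figure D5:**
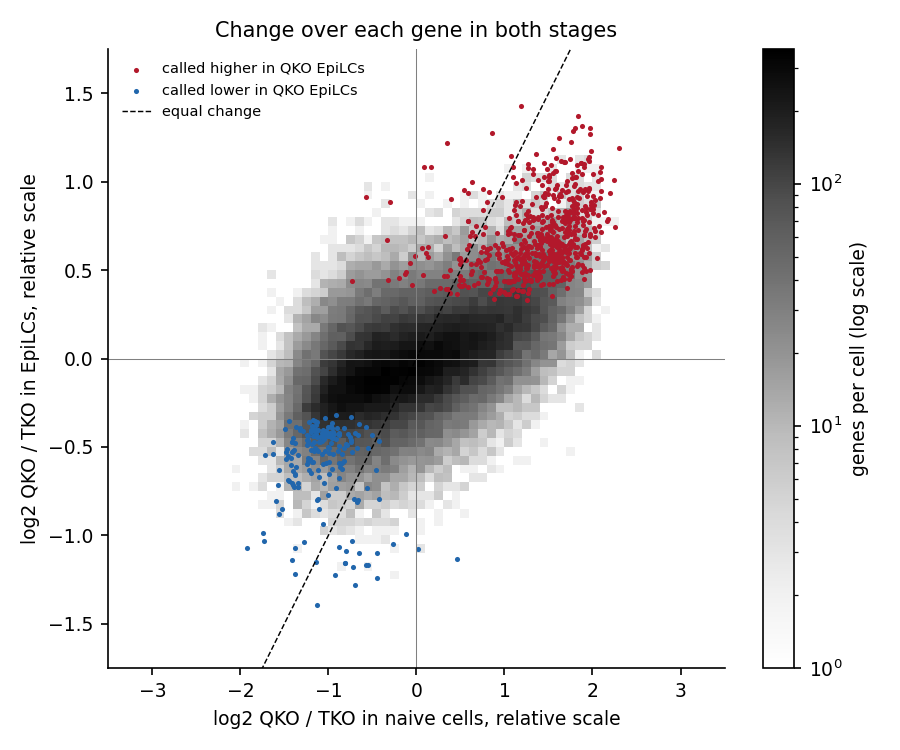
Relative log2 change of LAP2B over genes, QKO minus TKO, in naive cells (horizontal) and in EpiLCs (vertical). Shading is the number of genes, points are genes called in EpiLCs (red higher, blue lower), and the dashed line marks equal change. The cloud is flatter than the line, with an EpiLC change of 0.21 per unit of naive change.

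Most of these gene groups had larger median changes in naive cells. Very long neuronal genes had a median of -0.92 there and all 29 fell, Klr receptors -1.15 with 26 of 27 fallen, and olfactory receptors -0.79. Core pluripotency genes had a median of 0.88 and nuclear envelope genes 0.72. Clustered protocadherins had medians of opposite sign, -0.30 in naive cells and 0.17 in EpiLCs, as did neural genes (0.14 and -0.14) and mesoderm genes (0.56 and -0.04). The protocadherins were split in naive cells too, with 22 of 58 called higher and 18 lower. Pcdhgc5 and Pcdhgc4, called higher in EpiLCs, also rose in naive cells, by 0.98 and 0.94. Keratin-associated proteins had a smaller median in naive cells, -0.15 against -0.22, and so in size did primitive endoderm genes, 0.08 against -0.11, and germline genes, 0.01 against -0.05. Hox clusters had 29 of 39 genes higher and a median of 0.86 in naive cells against -0.01 in EpiLCs, and Wnt ligands 0.63 against -0.04. Of the TE families 30.4% were higher and 37.7% lower in naive cells, where all 34 SINE families were higher and all 25 L1Md families lower. The stage difference was called in 588 families, 48%, in all 34 SINE and all 25 L1Md families among them.

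The lamina contrast changed by -1.09 in naive cells and by -0.16 in EpiLCs. The difference of 0.92 between the stages had an exact permutation p of 0.1, with labels exchanged between QKO and TKO within each stage over 400 assignments. That exchange assumes no QKO and TKO difference in either stage, so its p-values do not test whether the stages differ from each other. The TKO contrast itself was 0.84 in naive cells and 0.29 in EpiLCs, where IGG in WT EpiLCs read 0.24. What part this lower start had in the smaller EpiLC change was not tested. Classes were by EpiLC LMNB1 in both stages, and with classes by naive LMNB1 the changes were -1.46 in naive cells and -0.24 in EpiLCs. The level on the spike-in scale differed by -0.56 in naive cells and by -0.64 in EpiLCs, a difference of -0.08 (p = 0.89 in the same exact permutation test). When whole reads were multiplied by the factor, the naive difference was 0.05 (exact permutation test, p = 0.8) and the EpiLC one -0.38.

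Loss of LBR where lamins were present (LBRKO minus WT in EpiLCs, which shares no library with QKO minus TKO) gave 23.3% of genes called, 13.3% higher and 10% lower. The Spearman correlation across genes with the QKO minus TKO change was 0.31. Of genes that rose with LBR loss in TKO EpiLCs 33.9% were also called higher in LBRKO, and of those that fell 56.3% were also lower. The difference between the 2 backgrounds was called in 5421 genes, 7.7%, and in 4938 of them the change was larger with lamins present. It was higher in 1554 and lower in 3867 on the lamin-null background, or 2064 and 2990 with libraries divided by their mean in place of their median. Of the 3867 genes, 813 (21%) lie on chromosome 6, which holds 4077 of the 70381 genes tested. It is trisomic in part of the WT cells per the methods, and its median LBRKO minus WT change was 0.33. The study gives no karyotype of the LBRKO cells, so the copy number difference is not known, and its part was not tested. In TEs the difference was called in 227 families, 18.5%. All 25 L1Md families were lower in LBRKO than in WT EpiLCs, against 28.7% of all families, with a median of -0.32.

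Renbp and Daxx, which rose in QKO, had values of -0.20 and -0.22 in LBRKO, and this difference between backgrounds was called (limma, adjusted p = 0.00344 and 0.000735). Get3 and Vmn2r31, at 0.41 and -1.24 in LBRKO, also differed (limma, adjusted p = 0.0499 and 0.0456). For Nfe2 (0.66 in LBRKO), Zfp551 (-1.45), Klrk1 (-0.07) and Pglyrp3 (-0.02) the difference was not called, with adjusted p from 0.119 to 0.399 (limma). The lamina contrast was 0.89 in WT and 0.73 ± 0.04 in LBRKO, a difference of -0.16 with overlapping groups (exact permutation test, p = 0.3). Over the other ways of taking it, the LBRKO difference lay between -0.06 and -0.28, with p = 0.1 in the exact permutation test for 3 of them, and the QKO difference between -0.18 and -0.39. The spike-in level changed by 0.08 in LBRKO and by -0.64 in QKO EpiLCs, a difference of -0.72 (exact permutation test over 400 assignments, p = 0.055). That test assumes no change in either background, so it does not test whether the backgrounds differ from each other. The LBRKO value depended on the measure, at 0.51 with whole reads multiplied by the factor (exact permutation test, p = 0.1) and -0.27 as the mean over TE families (p = 0.4).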

How the data were processed

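LAP2B, LMNB1 and IGG CUT&RUN was read from deposited tables of genes and of copies of transposable elements. Per the study's methods and the labels, the authors aligned read pairs to mm39 with Bowtie2 2.3.5.1, filtered them with SAMtools 1.10, and computed coverage with deepTools as RPKM multiplied by a factor from pairs mapped to sacCer3. The deposited signal of a gene equals a sum over the 1 kb bins it touches, a join that the methods do not describe and that was worked out from the values: in 343 of 343 sets of genes within 1 shared bin the values differed by less than 0.0001. For copies of transposable elements the methods name wider bins, which could not be tested in this way. Within a library all gene values were whole multiples of 1 step, within 0.05 of a step (100%), so reads were recovered for the edgeR alternative.

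Values were divided by the median gene of the library (relative scale) or kept (spike-in scale), and log2 was taken after adding 0.1 of the table median, which understates changes of low genes. The lowest 0.1 of genes by mean signal was left out, which left 70381 of 78202. Coordinates in the GRCm39 annotation were found for 99.91% of all deposited genes. All 24 LAP2B libraries entered limma 3.58.1 (R 4.3.3) as 8 group means, and a call is a Benjamini-Hochberg adjusted p under 0.05 over all features. Values for single libraries were compared by exact permutation tests. No depth-based interval is given for genes, since replicates differ by more than counting error, and depth was 20179766 to 36816402 reads over genes.

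Genes were named by rule: called, at least 5 bins, libraries not overlapping, a proper symbol, at most 1 per 1 Mb, the 10 largest rises and falls. Up to 2 called members per direction of each list, the knocked-out genes and 4 windows per end were added. Gene lists and members were chosen with earlier results of these data known. Alternatives were the pseudocount, filters, scalings, the libraries in the fit, edgeR 4.0.16, a replicate block, and each library left out. A few genes that the rule names are not reported here. A deposited score column, a modified z score of copies, was not used.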

Additional observations from a re-analysis of the deposited data

Results flagged for a closer look

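The change with LBR loss differed between EpiLCs and naive cells in 18746 genes and 588 families of transposable elements, and between lamin-null and lamin-containing EpiLCs in 5421 genes and 227 families (limma, test of the difference itself, adjusted p under 0.05). Among the 48 genes named for their EpiLC change, their list or their knockout, the difference from naive cells was called in 27 and that from LBRKO minus WT in 12.

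Some genes stood far from the pattern of the other stage. The difference of the EpiLC and naive log2 changes was 1.58 for Ifi207, an interferon-inducible gene, at -0.21 in EpiLCs and -1.79 in naive cells. It was 1.54 for the olfactory receptor Or4k42 (-0.47 and -2.01) and 1.37 for Srsx (-0.48 and -1.85). For Ripply1, a transcriptional repressor that acts in somite formation, it was 1.49, with a rise of 0.91 in EpiLCs and -0.58 in naive cells, opposite signs. On the other side it was -1.69 for Morn3 (0.17 and 1.86), -1.68 for Pxn, which encodes the focal adhesion protein paxillin (0.19 and 1.88), -1.65 for Tent5b (0.36 and 2.02) and -1.65 for Sfpq, a nuclear RNA-binding protein (0.25 and 1.90). In these last genes the naive change had little counterpart in EpiLCs.

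Against LBR loss with lamins present, the difference was 1.39 for Odc1, the first enzyme of polyamine synthesis, at 0.50 in QKO minus TKO and -0.89 in LBRKO minus WT. It was 1.39 for Zfp352 (0.27 and -1.12), lost with 1 library left out at an adjusted p of up to 0.0625 (limma), 1.37 for the galactokinase gene Galk1 (0.75 and -0.62) and 1.34 for Renbp (1.14 and -0.20). It was -1.76 for Uba3, of the NEDD8 pathway (-0.30 and 1.46), -1.59 for the importin gene Ipo8 (0.38 and 1.97) and -1.45 for Med13, of the Mediator kinase module (0.27 and 1.71). Uba3 and Ipo8 lie on chromosome 6, which is trisomic in part of the WT cells. No karyotype is given for the LBRKO cells, and the part of copy number in the values of these genes was not tested.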

How the results depend on the processing

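Genes called on the relative scale numbered 847, 66 to 726 with 1 library left out (66 without QKO replicate 1, 102 without QKO replicate 2, 211 to 287 without a TKO library), 255 with no filter on low genes, 5794 with the 6 libraries alone in the fit and 1559 with edgeR on recovered reads (844 of the 847 among them). The higher share of the calls was 77.6%, 58.4% with the 6 libraries alone, 67.1% over genes of at least 10 bins and up to 97% (without QKO replicate 1) with 1 library left out, where the 190 lower calls became 2 and 9 without QKO replicate 1 and 2, and 26, 28 and 17 without TKO replicate 1, 2 and 3. Genes called on the spike-in scale numbered 0 (without TKO replicate 1) to 35779 (without TKO replicate 3) with 1 library left out, 1 without QKO replicate 2, 11018 with the 6 libraries alone and 651 with the factor applied to reads. Families of transposable elements called on the relative scale were 0, 93 with the 6 libraries alone and 1 with libraries divided by their mean, and on the spike-in scale 0 (without TKO replicate 1, limma, 618 at an unadjusted p under 0.05) to 1222. The lamina contrast of -0.16 was -0.39 with classes by LMNB1 over IGG and -0.24 with classes by naive LMNB1. The cause of these shifts was not tested. The stage and background differences stayed within 1.5 times of the counts given, at 14328 to 20773 and 3734 to 5837 genes, but with libraries divided by their mean the higher share of calls moved from 45.6% to 56.1% and from 28.7% to 40.8%. The level kept its sign in the alternatives run, at -0.38 to -0.85. Same-numbered QKO and TKO libraries correlated at 0.02, 0.01 and 0.05 in their deviations, so the numbers do not pair them. With the replicate block 812 genes on the relative scale, 16055 on the spike-in scale, 18647 for the stage difference, 5301 for the background difference, 0 and 1213 families, a level of -0.64 and a lamina contrast of -0.16 resulted (exact paired p = 0.25, the smallest that 3 pairs allow). QKO replicates 1 and 3 correlated best with their own number and replicate 2 did not. No named gene reversed under the alternatives run, and 11 to 38 of 64 values lost their call with 1 library left out.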
